A study of Homo sapiens with 24 samples.

Results

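The genes of the unfolded protein response of the endoplasmic reticulum (ER) were followed in 2 biliary tract cancer cell lines under the kinase inhibitor sorafenib. The set holds 32 genes, chosen by name from the chaperones, folding enzymes, degradation factors and stress sensors of the ER, and each symbol was matched to 1 Ensembl gene among the 78724 gene IDs of the count tables. The rule uses names alone, though the set was proposed with earlier results of these data known. HuCCT1 is a line from intrahepatic cholangiocarcinoma, a cancer of the bile ducts inside the liver, and OCUG-1 is a gallbladder cancer line. Both were grown for 72 h in 4 arms. The vehicle arm had DMSO at no more than 0.1%, 2 arms had sorafenib alone at 1.25 or at 10 µM, and the combination arm had 1.25 µM with 1 µM of IACS-010759, which blocks mitochondrial complex I. Each arm of each line had 3 biological replicates, which gives 24 libraries of bulk RNA sequencing. HuCCT1 was cultured in RPMI-1640 and OCUG-1 in DMEM, so line and medium cannot be told apart, and none of these arms held IACS-010759 alone.

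The ER folds and modifies proteins bound for membranes and secretion. When unfolded proteins build up there, 3 membrane sensors respond: IRE1 (gene ERN1) splices the mRNA of the transcription factor XBP1, ATF6 is cut to release a transcription factor, and the kinase PERK slows translation while favouring that of ATF4. XBP1 and ATF6 raise the transcription of chaperones such as HSPA5 (also called BiP), of disulfide-forming enzymes and of the machinery that draws misfolded proteins out of the ER for destruction. Sensor activity itself is set by splicing, cleavage and phosphorylation, which counts per gene do not show, and reads of spliced and unspliced XBP1 mRNA were counted together.

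Library totals ran from 18238834 to 30693736 counts in HuCCT1 and from 14388855 to 24019011 in OCUG-1. Levels below are in CPM, counts scaled to a common library total and adjusted by the trimmed mean of M values (TMM) over the 24 libraries. Changes are log2 fold changes ± SE from edgeR's quasi-likelihood test, and a gene is said to have risen, fallen or been called where its two-sided Benjamini-Hochberg adjusted p over all genes tested in that fit was under 0.05. All 32 genes passed the low-count filter in both lines. Bulk counts average over a culture, so fewer cells making an RNA and less of it per cell cannot be told apart, and directions are relative to the bulk of genes. Epithelial markers fitted the label of HuCCT1 (KRT7 at 3568 to 6816 CPM in its libraries), while OCUG-1 had KRT7 at 6.15 to 15.7 and CDH1 at 0.249 to 3.90 CPM beside KRT8 at 642 to 4870 CPM. Markers of other cell types were low but not absent. Of 3 immune genes CD14 was at 1.74 to 3.75 CPM over all libraries, PTPRC at most at 0.977 and CD3E at most at 0.155 CPM. Of 3 endothelial genes PECAM1 reached 7.23 CPM, VWF 1.31 and CDH5 0.779 CPM. Of 4 fibroblast genes COL1A1 was at 20.0 to 31.6 CPM in HuCCT1 and at 22.0 to 101 CPM in OCUG-1, PDGFRB reached 8.72 CPM, DCN 6.72 and COL1A2 0.621 CPM, and of 3 hepatocyte genes ALB was the highest, at 2.69 CPM or less. The part of other cell types in the changes was not tested. The mitochondrial share of counts differed between arms: in OCUG-1 it was 12.2% ± 1.26 (SD, n = 3) with vehicle and 5.95% ± 0.297 at 10 µM, and in HuCCT1 11.0% ± 3.56 with vehicle and 17.9% ± 4.83 at 1.25 µM, and its part in the changes was not tested. One HuCCT1 library stood apart most for these genes: replicate 3 of the 10 µM arm was the highest of its arm for 31 of 32, at a median of 1.57 times the mean of the other 2, and results that rest on it are given with and without it. Replicate 3 was also the highest for 21 of 32 in the vehicle arm and for 23 in the 1.25 µM arm of HuCCT1 (12 in the combination). It had the lowest mitochondrial share within each of those 3 arms, at 7.08% with vehicle, 12.5% at 1.25 µM and 8.32% at 10 µM. In OCUG-1 replicate 1 was the lowest for 23, 24 and 28 of 32 in the vehicle, 1.25 µM and 10 µM arms and the highest for 30 in the combination.

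Some of the set carries a recognised stress element near the gene start. The ER stress response element (ERSE), which is CCAAT, then 9 free bases, then CCACG, is bound by NF-Y together with ATF6, and ERSE-II, which is ATTGG, 1 free base and CCACG, is a compact variant. Both were searched on both strands from 250 bases before to 50 after each RefSeq gene start (GRCh38.p14), for the 28 members that had such a window. The ERSE was found in 8 of 28 members (28.6%) and in 25 of 27305 genes (0.092%), and ERSE-II in 3 members (10.7%) and in 19 genes (0.07%). The gene totals here and below include the members. The sequences below are the ERSE and ERSE-II matches in members other than CANX, 5′ to 3′ along the gene, with the fixed letters of the element in capitals.
HSPA5, chr9:125241386-125241414, minus strand: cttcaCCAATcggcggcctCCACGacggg
XBP1, chr22:28800598-28800626, minus strand: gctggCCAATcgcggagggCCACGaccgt
HSP90B1, chr12:103930211-103930239, plus strand: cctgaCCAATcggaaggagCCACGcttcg
HSP90B1, chr12:103930316-103930344, plus strand: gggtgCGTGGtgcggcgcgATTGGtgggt
PDIA6, chr2:10812848-10812876, minus strand: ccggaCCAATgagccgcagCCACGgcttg
CALR, chr19:12938379-12938407, plus strand: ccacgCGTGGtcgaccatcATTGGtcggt
ERO1B, chr1:236282178-236282206, minus strand: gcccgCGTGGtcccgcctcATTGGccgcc
CRELD2, chr22:49918549-49918577, plus strand: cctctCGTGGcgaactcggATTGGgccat
HERPUD1, chr16:56932020-56932040, plus strand: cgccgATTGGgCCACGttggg
HYOU1, chr11:119057375-119057395, minus strand: cgtgaCGTGGtCCAATcccag
HYOU1, chr11:119057269-119057289, minus strand: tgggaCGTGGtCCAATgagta
SDF2L1, chr22:21642109-21642129, plus strand: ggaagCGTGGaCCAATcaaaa
The element in HSPA5 runs from position -66 to -48 relative to the gene start, and a longer stretch from -160 to -21 is shown because this gene had the highest level per kilobase of the set in OCUG-1 at 10 µM and in the combination.
HSPA5, chr9:125241364-125241503, minus strand: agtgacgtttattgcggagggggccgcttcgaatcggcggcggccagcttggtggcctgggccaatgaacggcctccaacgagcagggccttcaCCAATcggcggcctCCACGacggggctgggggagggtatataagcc
CANX held the remaining ERSE. With the last base of the ERSE left free (a looser form that every full ERSE also meets) 9 members and 104 genes (0.381%) matched, HERPUD1 being the addition. The core TGACGTGG, bound by XBP1 and ATF6, was in 1 member, HYOU1, where it overlaps an ERSE-II, and in 253 genes (0.927%). The ATF4 type element TTGCATCA was in 1 member, HERPUD1, and in 295 genes (1.08%). These are matches of letters, not measured binding.

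Without drug members differed between the lines about as often as all genes tested. The set took 0.627% ± 0.0522 (SD, n = 3) of counts in HuCCT1 and 0.711% ± 0.0599 in OCUG-1. Per kilobase of exon, the calcium-binding chaperone CALR led in both, at 309 CPM per kb in HuCCT1 and 516 in OCUG-1, and HSPA5, HSP90B1, PDIA3 and CANX made up the rest of the first 5. The lowest were ERO1B (0.370) and DERL3 (0.543) in HuCCT1 and DERL3 (0.202) and ERN1 (1.40) in OCUG-1. Of the 32 members 10 were higher and 13 lower in OCUG-1, where 35.6% of all genes tested were higher and 32.7% lower (68.3% in all). With scaling by library size alone, where the median over all genes was 0.20, 11 were higher and 10 lower. The IRE1 sensor gene ERN1 was at 61.0, 61.6 and 63.1 CPM in the 3 HuCCT1 vehicle libraries and at 15.5, 15.7 and 14.6 CPM in OCUG-1. The lines did not overlap, and the log2 difference was -2.02 ± 0.17 (adjusted p = 1.67e-11). ERO1B, an ER oxidase that recharges disulfide isomerases, was the opposite, at 1.78, 2.31 and 1.86 CPM in HuCCT1 and 8.60, 11.2 and 14.1 CPM in OCUG-1 (2.52 ± 0.21, adjusted p = 8.15e-12). The secreted ER stress protein CRELD2 (1.54 ± 0.17) and WFS1, an ER membrane protein mutated in Wolfram syndrome (1.33 ± 0.16), were also higher in OCUG-1, with no overlap of libraries. HSPA5 (-0.70 ± 0.24), the HSPA5 co-chaperone DNAJB9 (-1.19 ± 0.40) and XBP1 (-1.06 ± 0.17) were lower in OCUG-1. The calls for HSPA5 and DNAJB9 were lost without OCUG-1 vehicle replicate 1 (-0.63, adjusted p = 0.0564, and -0.97, adjusted p = 0.0692) and with a replicate block (-0.57, adjusted p = 0.0865, and -1.07, adjusted p = 0.0689). That of HSPA5 was also lost without a low-count filter (-0.69, adjusted p = 0.0614) and with library size scaling (-0.55, adjusted p = 0.0504), and ATF6 was not called (-0.36 ± 0.21, adjusted p = 0.132).

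**Figure D1:**
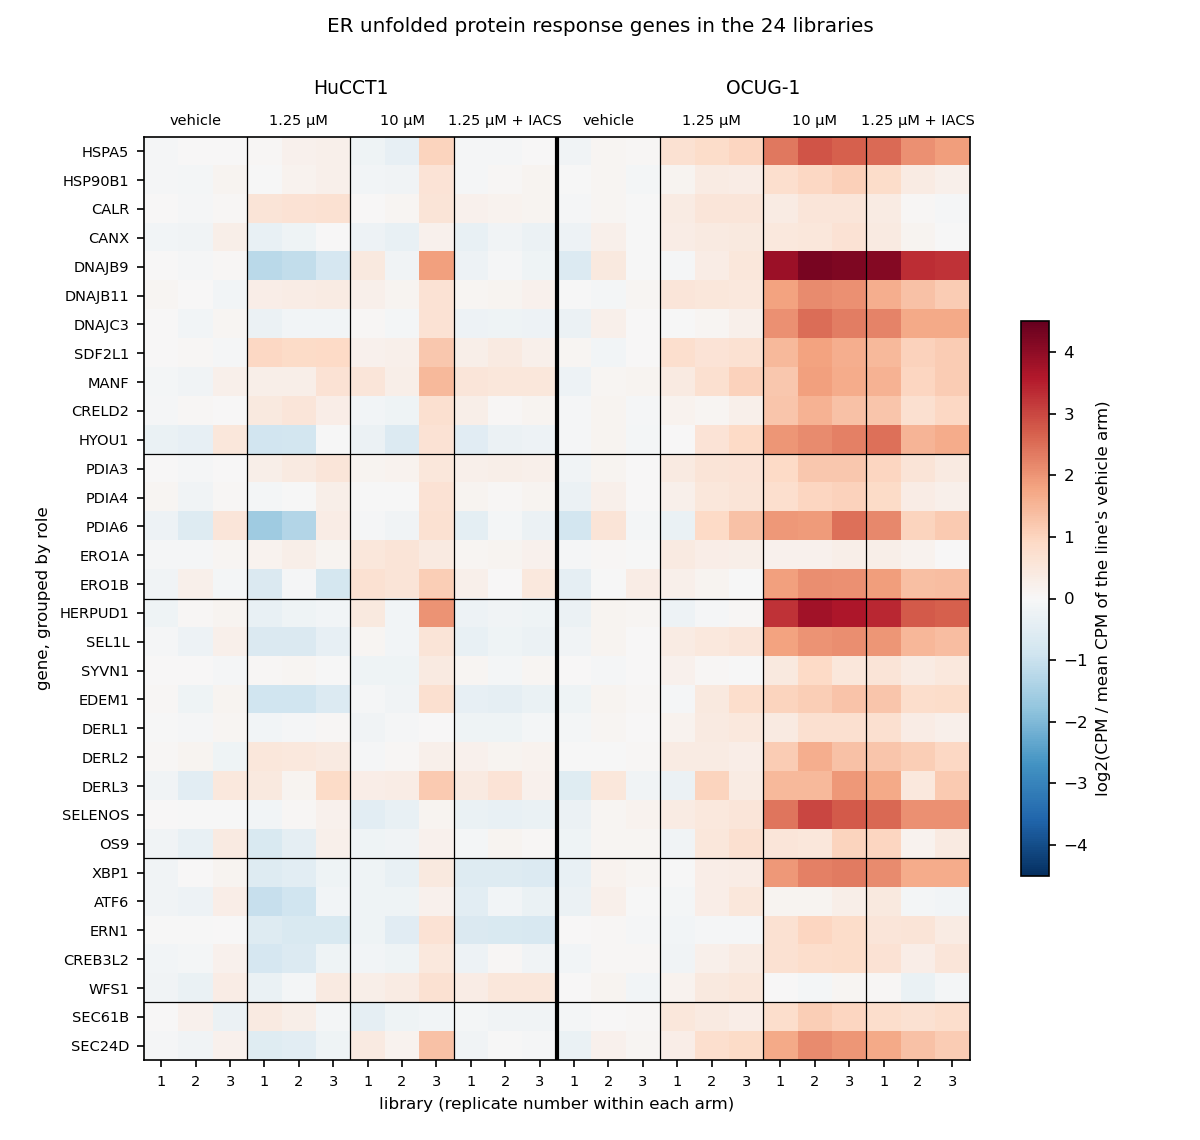
Heat map of log2(CPM divided by the mean CPM of the line's vehicle arm) for the 32 genes (rows, grouped by role) in the 24 libraries (columns, 3 replicates per arm); red is above and blue below the vehicle mean. The 10 µM and combination arms of OCUG-1 are red in most rows, and in HuCCT1 replicate 3 of the 10 µM arm is redder than replicates 1 and 2.

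In OCUG-1, 10 µM sorafenib raised 30 of the 32 genes and lowered none, with a median log2 fold change of 1.45 against 0.00068 over all genes tested. This was a comparison in which much of the transcriptome moved: 32.4% of all genes tested were higher and 30.7% lower, 63.1% in all. For each of the 30 all 3 treated libraries lay above all 3 vehicle libraries. How often all genes tested separated in this way was not computed. The share of all counts that fell on the 32 genes was 0.711% ± 0.0599 (SD, n = 3) with vehicle and 1.88% ± 0.190 at 10 µM. Markers of the biliary epithelium moved in the same comparison: of 8, 2 rose and 5 fell (median -1.10), and KRT8 (-1.96 ± 0.13), KRT18 (-1.99 ± 0.13) and KRT19 (-1.92 ± 0.12), which are epithelial keratins, were among those that fell. Of the fibroblast and endothelial markers 2 of 3 and 1 of 1 tested fell, while 1 of 1 hepatocyte markers tested rose (3.41). Of 2 immune markers tested none was called. The part of all these markers in the changes of the 32 genes was not tested.

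Among chaperones and co-chaperones all 11 rose, with a median of 1.70 and a range of 0.56 to 4.19. HSPA5, the HSP70 chaperone of the ER and the gene with the ERSE printed above, was at 614, 729 and 722 CPM with vehicle and at 3586, 4852 and 4439 CPM at 10 µM. Every treated library was above every vehicle library, with a 6.23-fold ratio of means and a log2 fold change of 2.71 ± 0.16 (adjusted p = 1.29e-10). Per kilobase it went from the fourth rank of the set to the first, at 1098 CPM per kb. DNAJB9 had the largest ratio of the set: 8.13, 16.6 and 12.4 CPM with vehicle and 178, 240.1 and 229.8 CPM at 10 µM, with no overlap (17.5-fold, 4.19 ± 0.29, adjusted p = 6.44e-08). DNAJB11, which delivers unfolded proteins to HSPA5, was at 122, 116 and 131 CPM and at 437, 537 and 510.2 CPM, again well apart (2.08 ± 0.12, adjusted p = 1.15e-10). DNAJC3, another HSPA5 co-chaperone (2.36 ± 0.16), the HSP70 relative HYOU1 (2.21 ± 0.24), the DNAJ-associated protein SDF2L1 (1.70 ± 0.12), the secreted factors MANF (1.67 ± 0.19) and CRELD2 (1.45 ± 0.12), and the HSP90 of the ER, HSP90B1 (0.99 ± 0.14), followed. The lectin chaperones of glycoprotein folding rose least, CANX by 0.62 ± 0.12 and CALR by 0.56 ± 0.12, and CALR was the member with the highest level per kilobase with vehicle.

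The degradation genes also all rose (9 of 9, median 1.45). HERPUD1, which assembles the retrotranslocation complex, had the smallest adjusted p of the set: 33.7, 44.6 and 43.4 CPM with vehicle and 389, 552 and 499.6 CPM at 10 µM. The lowest treated library, at 389 CPM, was far above the vehicle mean of 40.6 CPM (11.8-fold, 3.63 ± 0.18, adjusted p = 8.96e-11). The selenoprotein SELENOS, which recruits the ATPase p97 to the ER membrane, was at 27.9, 35.8 and 37.6 CPM and at 181, 268 and 231 CPM, without overlap (2.81 ± 0.17, adjusted p = 2.20e-10). SEL1L, partner of the ubiquitin ligase SYVN1, was at 54.9, 65.6 and 61.4 CPM and at 214, 247 and 256 CPM (2.05 ± 0.13, adjusted p = 4.74e-10). SYVN1 itself rose less (0.69 ± 0.11), as did the channel protein DERL1 (0.69 ± 0.13) and the lectin OS9 (0.78 ± 0.23). DERL2 (1.45 ± 0.12) and the mannosidase-like EDEM1 (1.21 ± 0.17) were between these. DERL3 rose from 0.530, 1.09 and 0.684 CPM to 2.12, 2.12 and 2.95 CPM (1.69 ± 0.38), but 77.0% of its exon bases overlap SMARCB1 on the other strand and no source used here gives the strand setting of the counting, so its counts may hold reads of that gene.

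All 5 disulfide genes rose (median 1.19), and the 2 ER oxidases differed widely in size. ERO1B was at 8.60, 11.2 and 14.1 CPM with vehicle and at 40.3, 47.7 and 47.5 CPM at 10 µM (2.06 ± 0.17, adjusted p = 5.42e-09), whereas ERO1A was at 205, 222 and 209 CPM and at 239.9, 243 and 256 CPM (0.29 ± 0.10, adjusted p = 0.0138). Both pairs of groups were separate. The isomerases PDIA3 (1.19 ± 0.14), PDIA4 (0.99 ± 0.15) and PDIA6 (95% interval 1.21 to 3.19) rose, the last with a wide interval and with 25.2% of its exon bases shared with ATP6V1C2 on the other strand. SEC24D, a coat protein of ER export vesicles (2.02 ± 0.17), and SEC61B, a subunit of the translocation channel (1.03 ± 0.10), rose too.

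The sensors and transcription factors split. XBP1 mRNA was at 53.6, 75.2 and 71.6 CPM with vehicle and at 257, 321 and 338 CPM at 10 µM, with no overlap (4.57-fold, 2.26 ± 0.15, adjusted p = 9.03e-10). ERN1 moved less but separated just as cleanly, from 15.5, 15.7 and 14.6 CPM to 24.6, 29.5 and 27.0 CPM (0.89 ± 0.11, adjusted p = 1.81e-06). The ER membrane factor CREB3L2 also rose (0.84 ± 0.12). ATF6 was at 43.0, 60.8 and 51.7 CPM and at 57.1, 56.1 and 62.0 CPM, with overlapping libraries, and was not called (0.24 ± 0.16, 95% interval -0.07 to 0.56, adjusted p = 0.195). WFS1 was not called either (0.08 ± 0.12, 95% interval -0.15 to 0.31). Grouped by the branch usually credited with their induction, as background knowledge and not from these data, 9 of 9 ATF6-type targets rose (median 1.67), 6 of 6 IRE1 and XBP1 targets rose (median 1.73), and 15 of 17 members not assigned to 1 branch rose (median 0.89). The 11 members with an ERSE or ERSE-II in the window had a median of 2.06 (0.56 to 3.63) and the 17 with a window and neither element 1.03 (0.08 to 4.19). The same medians were 0.94 and 0.63 for the addition of IACS-010759 in OCUG-1, and 0.22 and 0.21 at 10 µM in HuCCT1. DNAJB9, at the top of the range in OCUG-1 at 10 µM, had neither element.

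**Figure D2:**
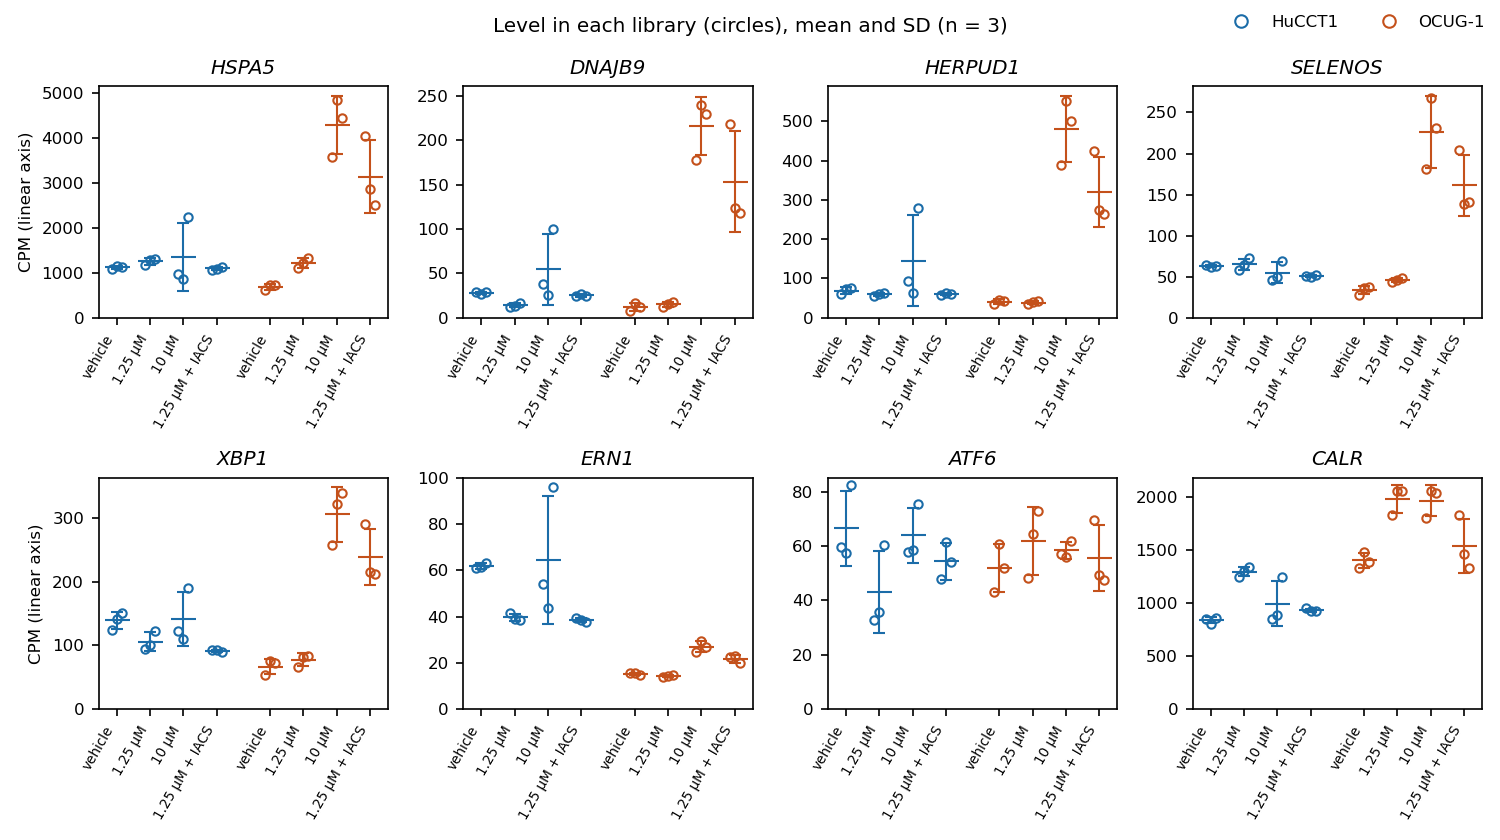
CPM of 8 of the genes in each library (circles) with the mean and SD of each arm (n = 3), HuCCT1 in blue and OCUG-1 in orange, on linear axes from 0. HSPA5, DNAJB9, HERPUD1, SELENOS and XBP1 are highest in the 10 µM and combination arms of OCUG-1, the arms of OCUG-1 overlap for ATF6, and the uppermost circle of the HuCCT1 10 µM arm is replicate 3 in each panel.

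The addition of 1 µM IACS-010759 to 1.25 µM sorafenib raised 21 of the 32 genes in OCUG-1 over 1.25 µM sorafenib alone, and lowered 1. Over all genes tested 31.4% were higher and 26.7% lower (58.1% in all), and the member median was 0.68 against 0.063. With scaling by library size alone the median over all genes was 0.21 in this comparison, and 24 members then rose and none fell. Of the 8 biliary epithelial markers 1 rose and 6 fell here (median -1.47), and their part was not tested. HERPUD1 was at 34.8, 38.9 and 41.8 CPM without and at 424, 274 and 265 CPM with the inhibitor. The groups lay far apart (3.17 ± 0.18, adjusted p = 6.21e-10). DNAJB9 went from 11.9, 15.7 and 17.7 CPM to 219, 124 and 118 CPM (3.46 ± 0.29, adjusted p = 4.08e-07), DNAJC3 from 54.8, 59.3 and 66.0 CPM to 263, 182 and 183 CPM (1.92 ± 0.16, adjusted p = 1.66e-08), and SELENOS from 43.4, 46.4 and 48.7 CPM to 204, 139 and 140.5 CPM (1.92 ± 0.16, adjusted p = 2.28e-08). None of these groups overlapped. XBP1 was at 65.9, 82.6 and 84.0 CPM and at 289.7, 214 and 212 CPM (1.74 ± 0.15, adjusted p = 2.83e-08), SEL1L at 78.1, 84.5 and 88.6 CPM and at 238, 169.9 and 159 CPM (1.29 ± 0.13, adjusted p = 1.78e-07), and HSPA5, already raised at 1.25 µM, at 1114, 1228 and 1331 CPM and at 4048, 2861 and 2514 CPM (1.47 ± 0.15, adjusted p = 2.16e-07). In each the lowest combination library was above the highest library without the inhibitor. ERN1 rose from 13.9, 14.6 and 14.7 CPM to 22.4, 22.9 and 19.9 CPM (0.71 ± 0.12, adjusted p = 3.74e-05).

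This response was uneven across roles. All 6 IRE1 and XBP1 targets rose (median 0.87), with 7 of 9 ATF6-type targets (median 0.94), 9 of 11 chaperones and 6 of 9 degradation genes. Of the disulfide genes only ERO1B rose (1.55 ± 0.16), while PDIA3 (0.25 ± 0.14), PDIA4 (0.17 ± 0.15), PDIA6 (0.86 ± 0.49) and ERO1A (-0.07 ± 0.10) were not called. CALR (-0.25 ± 0.11) and CANX (-0.10 ± 0.12) were not called and had negative values. ATF6 had a value of -0.04 ± 0.16 (adjusted p = 0.84), whose sign turned with library size scaling (0.10) and when 1.25 µM replicate 3 (0.086) or combination replicate 2 (0.032) or 3 (0.016) was left out. WFS1 fell, from 57.0, 69.9 and 73.4 CPM to 52.9, 41.5 and 48.0 CPM (-0.38 ± 0.12, adjusted p = 0.00984). Replicate 1 of the combination arm was the highest of its arm for 30 of the 32 genes, at a median of 1.39 times the mean of the other 2, and 19 genes were called without it. Against vehicle, whose libraries the 10 µM comparison shares, the combination raised 28 members and lowered none (31.5% of all genes higher, 28.1% lower, 59.5% in all), with a median of 1.13, while 2 of the 8 biliary epithelial markers rose and 6 fell. HERPUD1 (3.07 ± 0.18), SELENOS (2.34 ± 0.16), HSPA5 (2.27 ± 0.16) and SEL1L (1.72 ± 0.13) led by adjusted p, XBP1 (1.92 ± 0.15), DNAJB9 (3.72 ± 0.29) and ERN1 (0.60 ± 0.11) rose, and ATF6 did not pass (0.18 ± 0.16). The members took 1.46% ± 0.285 (SD, n = 3) of counts in this arm.

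At 1.25 µM alone fewer members rose in OCUG-1, 5 of the 9 being chaperones. Of the 32 genes 9 rose and none fell, against 5.92% higher and 4.61% lower over all genes tested (10.5% in all), and the median was 0.37 against -0.033. With scaling by library size alone the median over all genes was -0.13, the share of higher calls over all genes went from 56.2% to 28.8%, and 6 members then rose. HSPA5 was at 614, 729 and 722 CPM with vehicle and at 1114, 1228 and 1331 CPM at 1.25 µM, with no overlap (1.78-fold, 0.80 ± 0.15, adjusted p = 0.00344). SDF2L1 was at 39.9, 33.9 and 37.5 CPM and at 62.1, 56.3 and 60.3 CPM (0.65 ± 0.12, adjusted p = 0.0024). Both calls held when any 1 library of these arms was left out. CALR, at 1333, 1477 and 1389 CPM and then 1826, 2058 and 2056 CPM (0.47 ± 0.12, adjusted p = 0.0157), DNAJB11, at 122, 116 and 131 CPM and then 178, 176 and 171 CPM (0.48 ± 0.12, adjusted p = 0.0163), and PDIA3, at 678, 833 and 776 CPM and then 1010.2, 1146 and 1175 CPM (0.51 ± 0.14, adjusted p = 0.0229), were also separate between arms. Those 3 calls were lost without vehicle replicate 1 or 1.25 µM replicate 2, and those of CALR and PDIA3 also without vehicle replicate 3 or 1.25 µM replicate 3. Members called numbered 2 when vehicle replicate 1 was dropped, 3 for vehicle replicate 3, and in the treated arm 2 for replicate 2 and 4 for replicate 3. MANF (0.71 ± 0.19), SEC24D (0.62 ± 0.17), SEL1L (0.44 ± 0.13) and SEC61B (0.38 ± 0.10) were the other genes called. DNAJB9 (0.25 ± 0.29), XBP1 (0.18 ± 0.15), ERN1 (-0.11 ± 0.12), HERPUD1 (-0.11 ± 0.17) and ATF6 (0.23 ± 0.16) were not called.

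The step from 1.25 to 10 µM in OCUG-1 shares the 1.25 µM libraries with the IACS-010759 comparison. In it 26 genes rose and none fell (31.6% and 29% over all genes, 60.5% in all), with a median of 1.03, and with library size scaling, at a median over all genes of 0.15, 27 rose. HERPUD1 (3.74 ± 0.19), SELENOS (2.39 ± 0.16), DNAJC3 (2.29 ± 0.16), DNAJB11 (1.60 ± 0.12) and XBP1 (2.08 ± 0.15) had the smallest adjusted p, and HSPA5 (1.91 ± 0.16), DNAJB9 (3.94 ± 0.29) and ERN1 (1.01 ± 0.11) rose. CALR (0.09 ± 0.11), whose level was raised at 1.25 µM, was not called, and neither were CANX, OS9, WFS1, ATF6 and ERO1A.

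HuCCT1 at 10 µM gave a smaller and less even picture. Of the 32 genes 6 rose and none fell, against 13% higher and 11.2% lower over all genes tested (24.2% in all), and the median was 0.22 against 0.0091. The oxidase ERO1A was at 285, 281 and 312 CPM with vehicle and at 416, 432 and 388 CPM at 10 µM, without overlap (0.49 ± 0.09, adjusted p = 9.81e-04), and this call held without any 1 library. MANF was at 51.1, 49.2 and 63.2 CPM and at 80.2, 65.9 and 149 CPM (0.85 ± 0.23, adjusted p = 0.0182), and ERO1B at 1.78, 2.31 and 1.86 CPM and at 3.18, 2.94 and 4.26 CPM (0.80 ± 0.25, adjusted p = 0.0266). In both the groups were separate. SEC24D was at 30.7, 28.5 and 36.3 CPM and at 42.1, 35.9 and 78.8 CPM (0.71 ± 0.22, adjusted p = 0.0311), where replicate 2 lay just inside the vehicle range. SDF2L1 was at 20.6, 21.4 and 19.7 CPM and at 23.6, 24.4 and 47.8 CPM (0.63 ± 0.20, adjusted p = 0.0351), and DNAJB11 rose by 0.34 ± 0.12. Replicate 3 was the highest 10 µM library in each of these genes except ERO1A. The calls of SDF2L1 (0.22, adjusted p = 0.138), SEC24D (0.29, adjusted p = 0.116) and ERO1B (0.64, adjusted p = 0.0868) were lost without it. That of SDF2L1 was also lost without any 1 vehicle library (adjusted p from 0.0714 to 0.0977). The SEC24D call was lost without vehicle replicate 1 or 2, and the ERO1B call without vehicle replicate 1 or 3. A fit of the 2 arms alone called only ERO1A (0.49 ± 0.12). Members called numbered 1 when vehicle replicate 1 was dropped and 2 for vehicle replicate 2, and MANF lost its call in both (adjusted p from 0.06 to 0.0706).

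For several central genes replicate 3 lay apart from the rest of its arm. HSPA5 was at 1078, 1145 and 1133 CPM with vehicle and at 975, 860.3 and 2232 CPM at 10 µM, so replicates 1 and 2 were below and replicate 3 above every vehicle library (0.28 ± 0.26, adjusted p = 0.483). DNAJB9 (28.5, 27.1 and 28.9 CPM, then 37.8, 25.5 and 100.4 CPM; 0.95 ± 0.38, adjusted p = 0.0949), HERPUD1 (60.1, 72.4 and 75.0 CPM, then 93.8, 63.5 and 279 CPM; 1.07 ± 0.42, adjusted p = 0.0936) and ERN1 (61.0, 61.6 and 63.1 CPM, then 53.9, 43.8 and 96.1 CPM; 0.06 ± 0.20, adjusted p = 0.863) were not called. The arm's spread was wide in each, with replicate 3 on top. XBP1 (0.02 ± 0.16) and ATF6 (-0.06 ± 0.21) were not called. Without replicate 3 of the 10 µM arm, 2 members rose (ERO1A, 0.53 ± 0.09, and MANF, 0.42 ± 0.13) and 3 fell (SELENOS, -0.40 ± 0.10, ERN1, -0.34 ± 0.10, and HSPA5, -0.29 ± 0.10), and the median of the 32 was -0.06. The values without it were 0.19 ± 0.14 for HERPUD1 and 0.17 ± 0.15 for DNAJB9, neither of them called. The share of counts on the 32 genes was 0.631%, 0.585% and 0.985% in the 10 µM replicates in order, where the vehicle libraries were between 0.584% and 0.685%. Replicate 3 was also the highest 10 µM library for 11 of the 13 PERK and ATF4 genes of a separate list, at a median of 1.56 times the other 2, and like replicate 3 of the vehicle and 1.25 µM arms it had the lowest mitochondrial share of its arm.

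At 1.25 µM HuCCT1 had 4 members up and 4 down, with a median near 0. These shares were not far from the 9.98% higher and 8.5% lower over all genes tested (18.5% in all). CALR was at 849, 805 and 862 CPM with vehicle and at 1248, 1303 and 1336 CPM at 1.25 µM, with no overlap (0.63 ± 0.13, adjusted p = 0.00324). SDF2L1 was at 20.6, 21.4 and 19.7 CPM and at 39.4, 37.2 and 38.5 CPM (0.90 ± 0.20, adjusted p = 0.00736), and DERL2 at 65.6, 70.4 and 55.9 CPM and at 90.7, 87.9 and 84.3 CPM (0.46 ± 0.10, adjusted p = 0.00716). These 3 were higher in every treated library, as was PDIA3 (0.41 ± 0.11, adjusted p = 0.0204). EDEM1 was at 42.6, 36.1 and 44.1 CPM and at 22.0, 22.2 and 26.7 CPM (-0.79 ± 0.18, adjusted p = 0.00779), and SEL1L also fell (-0.55 ± 0.16). ERN1 was at 61.0, 61.6 and 63.1 CPM and at 41.6, 38.8 and 38.8 CPM, lower in all 3 libraries (-0.64 ± 0.20, adjusted p = 0.0401), and ATF6 at 59.7, 57.5 and 82.5 CPM and at 32.8, 35.8 and 60.4 CPM, where replicate 3 overlapped the vehicle range (-0.63 ± 0.21, adjusted p = 0.0495). XBP1 (-0.39 ± 0.16, adjusted p = 0.109) and HSPA5 (0.17 ± 0.26, adjusted p = 0.688) were not called, though XBP1 was called lower without a low-count filter (-0.42, adjusted p = 0.00699), with library size scaling (-0.53, adjusted p = 0.0407), with a replicate block (-0.40, adjusted p = 0.0354) and without 1.25 µM replicate 3 (-0.51, adjusted p = 0.0449). DNAJB9 was at 28.5, 27.1 and 28.9 CPM with vehicle and at 12.2, 13.1 and 16.8 CPM at 1.25 µM. The arms did not overlap and the ratio of means was 0.499, and in the fit of all 12 HuCCT1 libraries it was not called (95% interval of the log2 fold change -1.78 to -0.22, adjusted p = 0.105). A fit of these 2 arms alone called it (-0.99 ± 0.14, adjusted p = 0.00318).

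Several of these HuCCT1 calls were narrow. That of ERN1 was lost when any 1 library of the arms was left out (adjusted p from 0.0738 to 0.121), that of ATF6 without vehicle replicate 1 or 3 or 1.25 µM replicate 1 or 2, and that of PDIA3 without vehicle replicate 1 or 2 or 1.25 µM replicate 2. Members called numbered 4 when vehicle replicate 1 was dropped and 5 for vehicle replicate 3, and in the treated arm 5 for replicate 1 and 4 for replicate 2. Without replicate 3 in every arm it was 19, with 8 up and 11 down, and DNAJB9 (-1.13 ± 0.14), XBP1 (-0.45 ± 0.09) and PDIA6 (-1.06 ± 0.14) were among those that fell. With scaling by library size alone the median over all genes was -0.14, the share of higher calls over all genes went from 54.0% to 26.7%, and 3 members then rose and 6 fell.

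IACS-010759 on top of 1.25 µM sorafenib changed 1 member in HuCCT1: CALR was at 1248, 1303 and 1336 CPM without and at 948, 928 and 922 CPM with it (-0.48 ± 0.13, adjusted p = 0.0231), against 5.06% higher and 6.57% lower over all genes tested (11.6% in all). The arms did not overlap, but the call was lost with library size scaling (-0.29, adjusted p = 0.138) and without 1.25 µM replicate 1 or 2 or any 1 of the combination libraries. DNAJB9 was at 24.3, 27.0 and 24.4 CPM in the combination, above all 3 libraries at 1.25 µM and just below those of the vehicle arm (0.85 ± 0.40, adjusted p = 0.199). A fit of the 2 arms alone called 7 members, DNAJB9 (0.86 ± 0.13), EDEM1 (0.46 ± 0.10) and SEL1L (0.30 ± 0.09) upward and SDF2L1 (-0.58 ± 0.09), CALR, DERL2 and SELENOS downward. HSPA5 (-0.20 ± 0.26), XBP1 (-0.21 ± 0.16), ERN1 (-0.05 ± 0.20) and ATF6 (0.34 ± 0.21) were not called. The count was 6 without 1.25 µM replicate 3, and with library size scaling 3 members rose and none fell. With that scaling the median over all genes was 0.19 and the share of higher calls went from 43.5% to 82.4%. Against vehicle the HuCCT1 combination lowered 2 members and raised none (9.94% higher, 10.1% lower and 20.1% in all over all genes): XBP1 was at 125, 141 and 151 CPM with vehicle and at 92.9, 92.2 and 90.1 CPM (-0.60 ± 0.16, adjusted p = 0.0173), and ERN1 at 39.5, 38.5 and 37.5 CPM in the combination (-0.68 ± 0.20, adjusted p = 0.0262). Both were lower in all 3 libraries than in any vehicle library. The ERN1 call was lost when any 1 library was left out (adjusted p from 0.0595 to 0.0867), and that of XBP1 without vehicle replicate 3 or any 1 combination library. HSPA5 (-0.03 ± 0.26), DNAJB9 (-0.16 ± 0.38) and ATF6 (-0.29 ± 0.21) were not called.

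Between the 2 doses in HuCCT1, 10 members were higher at 10 µM and 3 lower (14.4% and 13.7% over all genes, 28.2% in all). The 1.25 µM libraries are those of the comparisons above. EDEM1 was at 22.0, 22.2 and 26.7 CPM at 1.25 µM and at 39.1, 36.6 and 66.9 CPM at 10 µM (1.00 ± 0.18, adjusted p = 0.00101), and DNAJB9 at 12.2, 13.1 and 16.8 CPM and at 37.8, 25.5 and 100.4 CPM (1.95 ± 0.40, adjusted p = 0.00448). Neither pair of arms overlapped. SEL1L (0.77 ± 0.16), ERO1B (1.23 ± 0.26), SEC24D (1.10 ± 0.23) and ERN1 (0.70 ± 0.20) rose, and DERL2 (-0.39 ± 0.10), SEC61B (-0.43 ± 0.13) and CALR (-0.39 ± 0.13) fell. XBP1 (0.41 ± 0.16), ATF6 (0.57 ± 0.21) and HSPA5 (0.11 ± 0.26) were not called. ATF6 was called higher with DESeq2 (0.58, adjusted p = 0.0314), without a low-count filter (0.58, adjusted p = 1.11e-04), with library size scaling (0.73, adjusted p = 0.0262), with a replicate block (0.60, adjusted p = 0.0038) and without 1.25 µM replicate 3 (0.89, adjusted p = 9.27e-04). XBP1 was called higher without a filter (0.43, adjusted p = 0.00411), with library size scaling (0.58, adjusted p = 0.0192) and with the block (0.39, adjusted p = 0.0277). It was also called higher without 1.25 µM replicate 3 (0.53, adjusted p = 0.0298) or 10 µM replicate 2 (0.56, adjusted p = 0.0187). Without 10 µM replicate 3 the picture was more even, with 7 members up and 7 down and a median of 0.0285 in place of 0.24. DNAJB9 (1.17 ± 0.16), ERO1B (1.06 ± 0.27), EDEM1 (0.68 ± 0.11), SEC24D (0.68 ± 0.13), SEL1L (0.54 ± 0.13), ERO1A (0.35 ± 0.09) and ERN1 (0.30 ± 0.10) rose. SDF2L1 (-0.68 ± 0.10), CRELD2 (-0.59 ± 0.10), CALR (-0.58 ± 0.09), SEC61B (-0.49 ± 0.15), DERL2 (-0.46 ± 0.10), HSPA5 (-0.46 ± 0.10) and SELENOS (-0.45 ± 0.10) fell. Members called numbered 7 when 1.25 µM replicate 1 was dropped and 7 for its replicate 2, and the ERN1 call was lost without 1.25 µM replicate 2 or 3. With library size scaling the median over all genes was 0.18, the share of higher calls went from 51.2% to 77.5%, and 13 members rose and none fell.

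**Figure D3:**
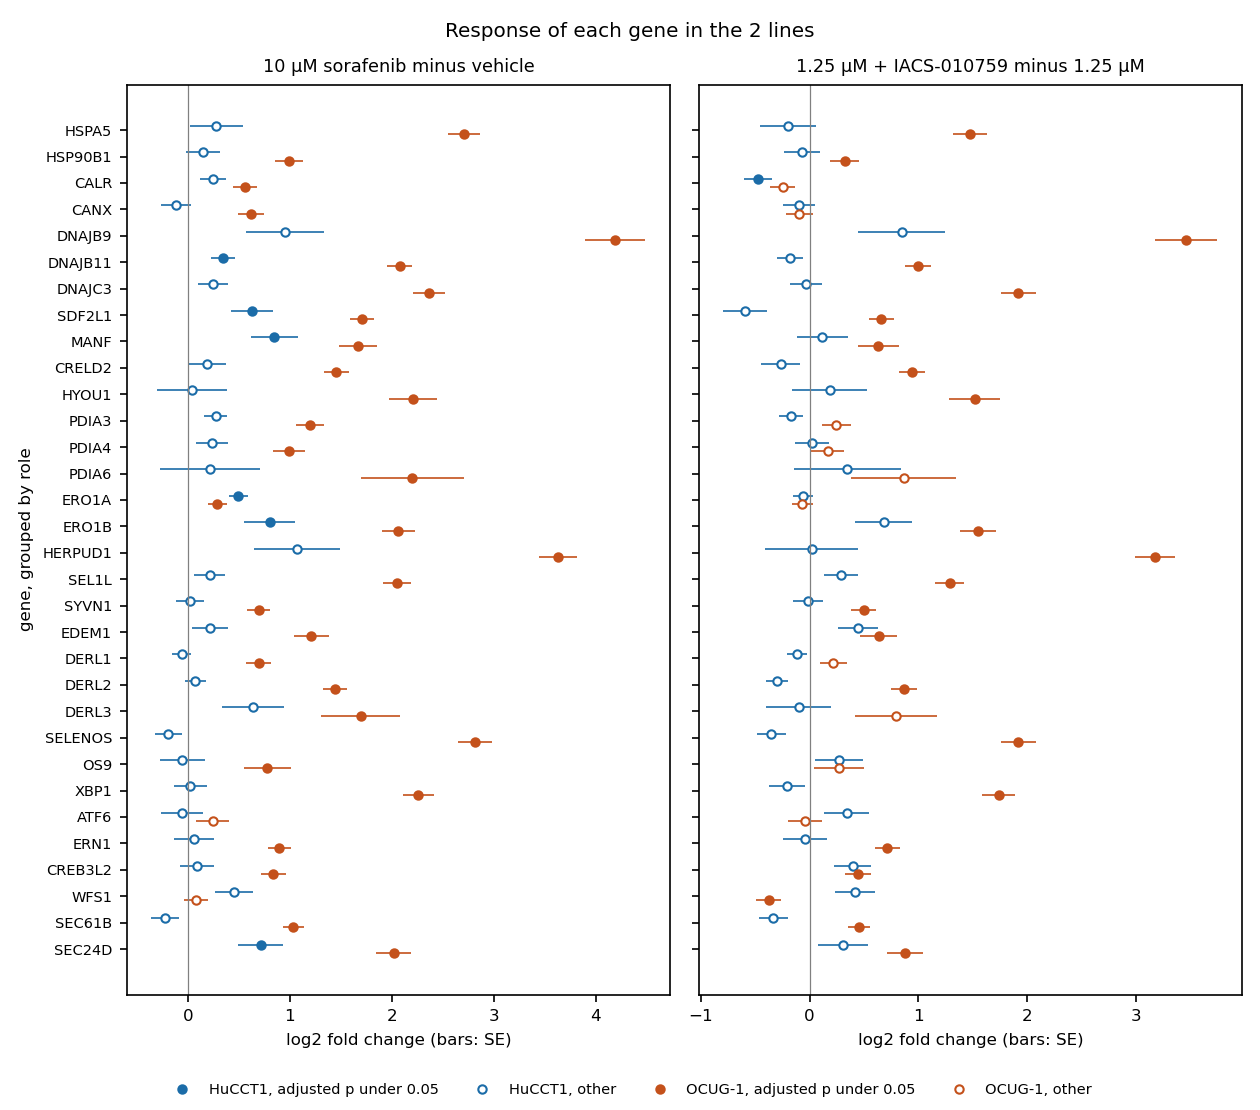
Log2 fold change (bars, SE) of each gene in HuCCT1 (blue) and OCUG-1 (orange) for 10 µM sorafenib against vehicle (left) and for IACS-010759 added to 1.25 µM sorafenib (right); filled points had an adjusted p under 0.05. At 10 µM 30 orange points and 6 blue points are filled, and on the right 22 orange points and 1 blue point.

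The difference between the lines was itself tested, as the OCUG-1 change minus the HuCCT1 change in a fit of all 24 libraries. At 10 µM the difference was called above 0 for 25 members and below 0 for none. Over all genes tested the shares were 20.7% and 23.1% (43.8% in all), and the median difference of the members was 1.00. SELENOS differed by 2.94 ± 0.22 (adjusted p = 2.75e-11), DNAJB11 by 1.67 ± 0.17, DNAJC3 by 2.05 ± 0.23 and XBP1 by 2.17 ± 0.24. For SELENOS the HuCCT1 libraries were at 63.9, 61.9 and 62.9 CPM with vehicle and at 45.5, 50.2 and 69.3 CPM at 10 µM, overlapping, and SELENOS was not called there. HSPA5 (2.36 ± 0.34), DNAJB9 (3.18 ± 0.55) and ERN1 (0.77 ± 0.23) differed, and ATF6 did not pass (0.23 ± 0.30). By branch 7 of 9 ATF6-type targets and 6 of 6 IRE1 and XBP1 targets differed, by role 9 of 11 chaperones, 7 of 9 degradation genes, 4 of 5 disulfide genes and 3 of 5 sensors. Those without a call were ERO1A (-0.28 ± 0.13), MANF, OS9, WFS1, DERL3, CALR and ATF6. The count was 29 without HuCCT1 10 µM replicate 3.

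For the addition of IACS-010759, the difference was called above 0 for 14 members and below 0 for 1, WFS1 (-0.91 ± 0.22, adjusted p = 0.00157). WFS1 fell in OCUG-1, while in HuCCT1 its ratio of means was 1.34 and it was not called. Over all genes tested the shares were 18.6% and 20.2% (38.8% in all), and the median difference of the members was 0.55. SELENOS (2.15 ± 0.22), DNAJC3 (1.84 ± 0.23), XBP1 (1.83 ± 0.24) and DERL2 (1.05 ± 0.16) had the smallest adjusted p, HSPA5 (1.56 ± 0.34) and DNAJB9 (2.50 ± 0.56) differed, and ERN1 (0.64 ± 0.23, adjusted p = 0.0311) lost its call when any of 6 libraries was left out (adjusted p from 0.0516 to 0.0734). ATF6 was not called (-0.50 ± 0.30). At 1.25 µM 3 members differed, against 4.96% of all genes higher and 4.69% lower (9.65% in all): SEL1L (1.02 ± 0.22, adjusted p = 0.00309), EDEM1 (1.24 ± 0.28, adjusted p = 0.00649) and SEC24D (1.05 ± 0.32, adjusted p = 0.0427), the last lost when any of 8 libraries was left out (adjusted p from 0.0711 to 0.12). SEL1L was called lower in HuCCT1 and higher in OCUG-1. HSPA5 (0.66 ± 0.34), DNAJB9 (1.29 ± 0.57), XBP1 (0.61 ± 0.24), ERN1 (0.56 ± 0.24) and ATF6 (0.89 ± 0.30) were not called, though ATF6 was called with DESeq2 (0.91, adjusted p = 0.0234), without a low-count filter (0.92, adjusted p = 0.00131) with a replicate block (0.91, adjusted p = 0.0224) and in 4 fits that left out 1 library, and XBP1 without a filter (0.64, adjusted p = 0.00539). That count was 7 without HuCCT1 1.25 µM replicate 3, and 5 without HuCCT1 vehicle replicate 2, OCUG-1 vehicle replicate 2 or OCUG-1 1.25 µM replicate 1.

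**Figure D4:**
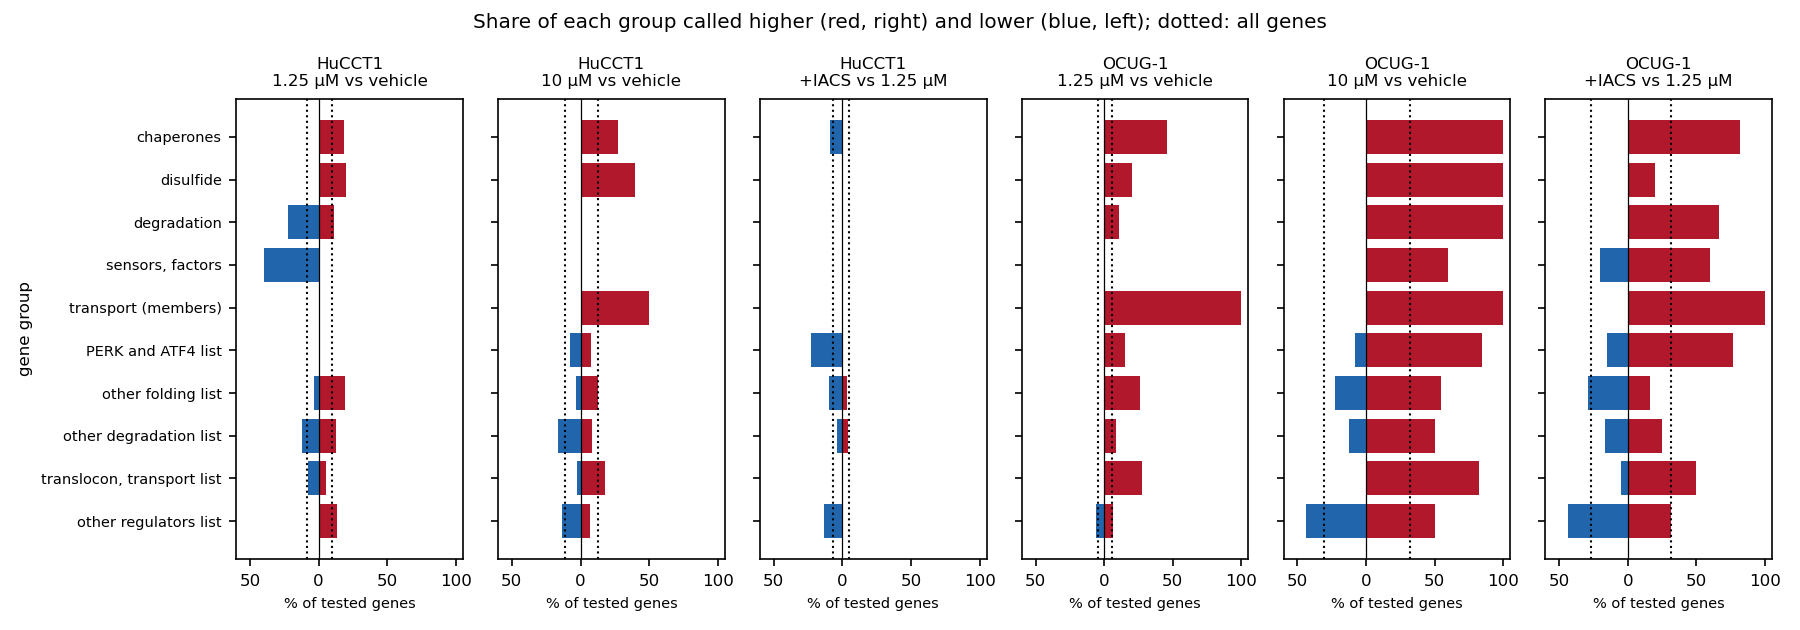
Percentage of tested genes called higher (red, to the right) and lower (blue, to the left) in each role of the 32 genes and in 5 lists of related genes, for 3 comparisons in each line; dotted lines give the percentage over all genes tested. In OCUG-1 at 10 µM 4 of the 5 roles reach 100% higher, and the list of other regulators is split with 8 of 16 higher and 7 lower.

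The wider ER pathway was read from 5 lists with 124 further genes, and its counts stand beside the shares over all genes. In OCUG-1 at 10 µM, where 32.4% of all genes rose and 30.7% fell, 11 of 13 genes of the PERK and ATF4 list rose and 1 fell (median 1.38). The stress-induced sestrin SESN2 (2.36 ± 0.12), the pseudokinase TRIB3 (2.25 ± 0.13) and the eIF2 phosphatase subunit PPP1R15A (2.03 ± 0.12) led. PERK activity was not measured, and whether these changes came from PERK or from the ER was not tested. Of 40 translocation and transport genes 33 rose and none fell (median 0.88), with the signal peptidase subunit SEC11C at 2.48 ± 0.16, the coat protein SEC24A at 2.26 ± 0.15 and the translocon-associated SSR3 at 1.69 ± 0.13. Other folding genes were mixed, with 17 of 31 up and 7 down (median 0.42), and the collagen chaperone SERPINH1 had the smallest adjusted p (3.16 ± 0.17). Other degradation genes had 12 of 24 up and 3 down (median 0.32), with the ubiquitin-conjugating enzyme UBE2J1 up (1.31 ± 0.13) and the ligase MARCHF6 down (-0.94 ± 0.09). Other regulators had 8 of 16 up and 7 down (median 0.44). Those that fell included NFYB, a subunit of the NF-Y factor that binds the CCAAT of the ERSE (-1.21 ± 0.10), MBTPS1, the protease that makes the first cut in ATF6 (-1.16 ± 0.10), and the ER stress transducer CREB3L1 (-2.35 ± 0.20).

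With IACS-010759 added in OCUG-1, where 31.4% of all genes rose and 26.7% fell, the PERK and ATF4 list again rose for 10 of 13 with 2 down (median 1.43), led by SESN2 (2.71 ± 0.13), TRIB3 (1.96 ± 0.13) and PPP1R15A (1.93 ± 0.12), while the other folding list had 5 of 31 up and 9 down and the other degradation list 6 of 24 up and 4 down. Transport genes rose for 20 of 40 and fell for 2. The regulators CREB3L1 (-2.56 ± 0.20), NFYB (-1.10 ± 0.10) and CREB3L3 (-3.12 ± 0.31) fell. Combination replicate 1, the highest of its arm for 30 of the 32 members, was the highest for 5 of these 13 PERK and ATF4 genes and for 35 of 40 transport genes. In HuCCT1, where 5.06% of all genes rose and 6.57% fell, the same addition lowered 3 of the 13 (median -0.62): the glutathione-degrading enzyme CHAC1 (-1.42 ± 0.15), ATF4 (-0.62 ± 0.14) and ATF3 (-1.28 ± 0.33). At 10 µM in HuCCT1, where 13% of all genes rose and 11.2% fell, 1 of the 13 rose, the PERK gene EIF2AK3 (0.73 ± 0.18), and CHAC1 fell (-0.53 ± 0.14), the transport list had 7 of 40 up and 1 down, and SERPINH1 fell (-0.67 ± 0.08). At 1.25 µM 2 of the 13 rose in OCUG-1, where 5.92% of all genes rose and 4.61% fell, ATF3 (0.94 ± 0.16) and TRIB3 (0.65 ± 0.12). There the transport list had 11 of 40 up and none down (median 0.39), and the other folding list 8 of 31 up and none down (median 0.33). Other degradation genes had 2 of 24 up and none down, and other regulators 1 of 16 up and 1 down.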

How the data were processed

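Total RNA was sequenced as TruSeq mRNA libraries with 150-base read pairs on a NovaSeq (per the labels' protocols). What the authors deposited is a table of unnormalized read counts per Ensembl gene for each line, made with HISAT2 2.2.2 on GRCh38 and featureCounts of Subread 2.1.1 after fastp 1.3.2, per the submitters' processing notes. Neither the annotation release nor the strand setting is stated in these sources. The labels mention added sequencing runs for 4 OCUG-1 libraries without naming them.

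Columns were matched to samples by their titles. Each line was fitted apart with edgeR 4.0.16 in R 4.3.3 (filterByExpr with a minimum count of 10, TMM scaling, robust quasi-likelihood test, two-sided, Benjamini-Hochberg adjustment over 19576 genes in HuCCT1 and 20511 in OCUG-1). Differences between lines came from 1 fit of 24 libraries and 22944 genes. SE is the log2 fold change divided by the root of F, and 95% intervals are 1.96 SE either side. CPM was scaled over 24 libraries. Named members are the 5 with the smallest adjusted p in each comparison among those called (4 for differences between lines) and the fixed panel HSPA5, DNAJB9, XBP1, ERN1 and ATF6, and others are named to complete a role. Members and lists were chosen with earlier results of these data known. The fits were also run on counts simulated from their own fitted model. Those counts held no outlying library, so this cannot show how the test behaves with one. Alternatives were DESeq2 1.42.0, no low-count filter, library size scaling, a replicate block, fits of the compared arms alone and leaving libraries out.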

Additional observations from a re-analysis of the deposited data

Results flagged for a closer look

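In 17 results the response of a member differed between the lines in the test of the difference (OCUG-1 change minus HuCCT1 change on the log2 scale, edgeR, adjusted over all genes, 3 libraries in each arm). At 10 µM the differences were 2.94 for SELENOS, 1.67 for DNAJB11, 2.05 for DNAJC3, 2.17 for XBP1, 2.36 for HSPA5, 3.18 for DNAJB9 and 0.77 for ERN1. For IACS-010759 added to 1.25 µM sorafenib they were 2.15 for SELENOS, 1.84 for DNAJC3, 1.83 for XBP1, 1.05 for DERL2, 1.56 for HSPA5, 2.50 for DNAJB9 and 0.64 for ERN1. At 1.25 µM alone they were 1.02 for SEL1L, 1.24 for EDEM1 and 1.05 for SEC24D. The lines were cultured in different media, so line and medium cannot be told apart. The differences of ERN1 for IACS-010759 and of SEC24D at 1.25 µM lost their calls in 6 and 8 of the fits that left out 1 library.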

How the results depend on the processing

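Of 173 recomputed counts of called members 127 stayed within 1.5 times the reported count, and no member with a reported call was called in the opposite direction under the alternatives run. These counts compare totals alone, not directions or which members were called. For HuCCT1 at 10 µM (reported 6 up) the total stayed within that range without its 10 µM replicate 3. There 2 rose and 3 fell, and 2 reported calls were kept. The same held without replicate 3 in every arm, where 4 rose and 5 fell, and 3 reported calls were kept. Of 1428 recomputed single-gene values 1287 kept their direction and side of the threshold, 83 lost the call, 34 gained it and 24 changed sign. The 10 µM, combination and dose counts of OCUG-1 stayed within 1.5 times. DESeq2 gave 3 members for IACS-010759 in HuCCT1 (reported 1) and 6 for the line difference at 1.25 µM (reported 3). Without a low-count filter these were 6 and 7, the HuCCT1 combination against vehicle had 4 (reported 2) and OCUG-1 at 1.25 µM 16 (reported 9). Library size scaling gave 3 for IACS-010759 in HuCCT1. Fits of the compared arms alone gave 1 for HuCCT1 at 10 µM (reported 6), 7 for IACS-010759, 8 for the combination and 7 for the dose step (reported 13). Without replicate 3 in every HuCCT1 arm there were 19 at 1.25 µM (reported 8), 17 for IACS-010759, 10 for the combination and 22 for the dose step. The cause was not tested.

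The labels do not say that replicate numbers pair libraries, and the main fits did not treat them as pairs. Correlations of same-numbered libraries ran from -0.131 to 0.396 (median 0.0505) for HuCCT1, where 6 of 12 libraries correlated best with their own number. For OCUG-1 they ran from -0.196 to 0.244 (median -0.0295), and 3 of 12 did so. For most members replicate 3 was the highest library in 3 of the 4 HuCCT1 arms, and replicate 1 the lowest in 3 OCUG-1 arms and the highest in the fourth. Replicate 3 of HuCCT1 also lay apart in those arms over all genes with enough counts. The chi-square per degree of freedom of its pairs was 37.4 and 49.8 with vehicle, against 11.7 for replicates 1 and 2. At 1.25 µM it was 50.6 and 37.6 against 5.45, and at 10 µM 27.3 and 37.9 against 7.83. In the combination it was 4.42 and 5.16 against 9.02. OCUG-1 pairs ran from 5.16 to 23.2. Whether a number marks a shared batch was not tested. With a replicate block the counts were 4 for IACS-010759 in HuCCT1, 4 for its combination and 6 for the line difference at 1.25 µM, and the others stayed within 1.5 times.

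Leaving out 1 library gave 4 to 11 members for HuCCT1 at 1.25 µM, 1 to 8 at 10 µM, 0 to 6 for IACS-010759, 0 to 1 for the combination and 7 to 14 for the dose step. In OCUG-1 it gave 2 to 13 at 1.25 µM, 29 to 30 at 10 µM, 19 to 22 for IACS-010759, 24 to 28 for the combination and 24 to 26 for the dose step, and for line differences 2 to 7 at 1.25 µM, 23 to 29 at 10 µM, 13 to 16 for IACS-010759 and 19 to 23 with vehicle.

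Among the members picked by adjusted p and the fixed panel, signs turned for 4 genes, on the log2 scale. Sign changes of other members were not counted. ERN1 for IACS-010759 in HuCCT1 was 0.0054 without a filter and 0.14 with library size scaling, and HSPA5 in the HuCCT1 combination was 0.017 with library size scaling. XBP1 at 10 µM in HuCCT1 was -0.0025 with the replicate block. Without replicate 3 in every HuCCT1 arm the 10 µM values were -0.18 for XBP1, -0.27 for HSPA5 and -0.32 for ERN1, and HSPA5 was -0.41 in the dose step. ATF6 in OCUG-1 was -0.0015 in the dose step without a filter and 0.10 for IACS-010759 with library size scaling. Leaving out 1 library gave at 10 µM in HuCCT1 -0.29 to 0.52 for HSPA5, -0.25 to 0.17 for XBP1, -0.34 to 0.27 for ERN1 and -0.20 to 0.12 for ATF6. In the same way HSPA5 ranged from -0.054 to 0.0033 in the HuCCT1 combination and from -0.46 to 0.35 in the dose step, and ATF6 in OCUG-1 from -0.29 to 0.086 for IACS-010759, -0.042 to 0.31 for the combination and -0.14 to 0.14 for the dose step.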
